A study of Mus musculus with 12 samples.

Results

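The circadian clock genes of the mouse dorsal raphe (DR), the midbrain nucleus that holds most serotonergic neurons projecting to the forebrain, were described in 12 libraries. The 10 genes were taken by their symbols: Arntl, Clock, Per1, Per2, Per3, Cry1, Cry2, Nr1d1, Nr1d2 and Dbp, out of 24421 gene rows. All 10 were in every file, and all 10 passed the filter on low counts. Each library came from 1 animal. The 4 control mice (2 females and 2 males) were Sert Cre/+; Stat3 fl/+ and the 8 STAT3 KO mice (4 females and 4 males) were Sert Cre/+; Stat3 fl/fl, on a mixed C57BL/6 x 129 background, with Cre driven from the locus of the serotonin transporter gene Slc6a4. Both genotypes thus carried Cre, and the controls carried 1 floxed Stat3 allele. The mice were littermates, were housed singly under 12 h of light from 7 a.m. and 12 h of darkness, and were 8 to 16 weeks old when experiments began. The study's in vivo experiments took place in the light phase. The hour at which an animal was killed for RNA is not given in the sources used here. The tissue was a square piece below the cerebral aqueduct, with sides of about 1.5 mm, cut from 4 consecutive coronal sections of 300 µm, so serotonergic cells shared each library with every other cell of that piece. In such bulk tissue, fewer cells of a type and less RNA per cell cannot be told apart.

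The mammalian clock is a loop of transcription with a period of about a day. ARNTL (also called BMAL1) and CLOCK pair on E-box sequences and switch on the Per and Cry genes, whose proteins return to the nucleus and repress that pair. The same pair drives Nr1d1 and Nr1d2, which encode the receptors REV-ERB alpha and beta that repress Arntl, Clock and Cry1, and it drives Dbp, a PAR bZIP factor that acts on D-box sequences such as those of Per genes. In most tissues Dbp, Nr1d1, Nr1d2, Per1, Per2, Per3 and, with a small swing, Cry2 peak in the same part of the day, and Arntl, Clock and Cry1 peak at other hours, Arntl around the opposite part of the day. The first 7 genes are called the Dbp group here, and the other 3 the Arntl group. This grouping is textbook knowledge and used no value of these libraries. In most tissues of mice, Nr1d1 and Dbp reach their maxima while the lights are on and Arntl around the end of the dark phase.

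Promoter sequences of 9 of the 10 genes were found among the RefSeq windows of GRCm38.p6, as 13 start sites. The 250 bases before each start were searched on both strands for the E-box CACGTG, the D-box TTATGTAA or TTACGTAA, and the half-site AGGTCA that receptors of the REV-ERB and ROR families recognise. Of the 9 genes, 2 held the E-box, against 6.86% of all 26994 genes with a window. The D-box was found in 1 gene, against 1.09% of all genes, and the half-site in 3 (Clock, Per1 and Nr1d2), against 15.8%. The 3 windows that held an E-box or a D-box are printed 5′ to 3′ on the strand of the gene, because they hold words searched for, with every match in capitals. The Per1 window is chr11:69098699-69098948 (plus strand), with the E-box 166 to 161 bases before the start and a half-site on the other strand 137 to 132 bases before it. The Cry1 window is chr10:85185055-85185304 (minus strand), with the E-box 60 to 55 bases before the start. The Per3 window is chr4:151044666-151044915 (minus strand), with copies of the D-box TTATGTAA 205 to 198 and 158 to 151 bases before the start. A match is a description of letters, and clock elements can also lie outside these windows.
Per1: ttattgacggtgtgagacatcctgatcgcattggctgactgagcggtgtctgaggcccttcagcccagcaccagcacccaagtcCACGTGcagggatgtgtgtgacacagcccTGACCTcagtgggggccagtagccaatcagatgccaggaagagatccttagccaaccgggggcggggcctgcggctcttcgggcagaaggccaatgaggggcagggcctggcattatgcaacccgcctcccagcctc
Cry1: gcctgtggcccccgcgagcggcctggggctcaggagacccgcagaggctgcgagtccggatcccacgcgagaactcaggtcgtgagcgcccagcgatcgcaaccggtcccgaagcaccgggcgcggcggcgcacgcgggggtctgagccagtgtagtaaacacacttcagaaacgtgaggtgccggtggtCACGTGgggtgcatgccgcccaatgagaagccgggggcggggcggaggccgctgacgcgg
Per3: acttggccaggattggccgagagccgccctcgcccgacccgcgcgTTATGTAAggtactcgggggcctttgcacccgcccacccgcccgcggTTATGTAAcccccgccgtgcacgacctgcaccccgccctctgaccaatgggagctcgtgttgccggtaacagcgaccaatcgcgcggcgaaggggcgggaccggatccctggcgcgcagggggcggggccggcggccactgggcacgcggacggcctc

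Between 24379588 and 29645210 reads were counted on genes per library, so that 3 counts, taken as the floor, equalled 0.101 to 0.123 CPM, that is counts relative to the library total, here without TMM factors. All other CPM values include TMM factors. This limit covers counting error only. The clock genes lay far above it, with 408 counts or more in every library. Stat3 itself, the targeted gene, read 66.6 ± 1.49 CPM (SD, n = 4) in controls and 66.3 ± 2.72 CPM (n = 8) in STAT3 KO mice, from 62.7 to 70.1 CPM over all libraries. The labels could not be checked from this count. As the study describes it, Cre removes only the exons that encode the SH2 domain, while the deposited count covers the whole gene. The piece also held cells without Cre. The part of each in the reading was not tested. The serotonergic markers Tph2 (540 to 879 CPM) and Slc6a4 (151 to 405 CPM) were high in every library. Some libraries stood apart in markers of neighbouring tissue. Summed over 6 genes, markers of forebrain excitatory neurons reached 259 CPM in control 4 and 88.6 CPM in STAT3 KO 16, while the rest held 17.1 to 55.9 CPM. Choroid plexus markers reached 257 and 249 CPM in STAT3 KO 8 and 16, against 29.9 to 41.7 CPM elsewhere, and cerebellar markers 403 CPM in STAT3 KO 16 and 201 CPM in STAT3 KO 10. Results are also given without control 4 and STAT3 KO 5, 15 and 16. An earlier re-analysis of the deposited files, not the study, had set these 4 libraries apart for forebrain markers. By the sums used here, STAT3 KO 15 read 55.9 CPM and STAT3 KO 5 38.7 CPM, the latter near STAT3 KO 10 at 35.8 CPM. This setting keeps STAT3 KO 8 and 10, so it does not cover choroid plexus or cerebellar markers in them.

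Per kilobase of exon, Nr1d2 and Dbp were the most abundant of the 10 and Arntl the least. The mean over the 12 libraries was 29.5 ± 2.53 CPM per kilobase (SD) for Nr1d2, 28.4 ± 4.69 for Dbp, 22.6 ± 3.24 for Nr1d1 and 17.6 ± 0.793 for Cry2. Lower down came Per1 at 8.96 ± 1.57 CPM per kilobase, Clock at 7.75 ± 0.564, Cry1 at 6.39 ± 0.603, Per3 at 5.36 ± 0.580, Per2 at 5.19 ± 0.876 and Arntl at 2.48 ± 0.194. Of the 9 neighbouring steps in this order, the ranges of the libraries were separate at 2, from Cry2 to Per1 and from Per2 to Arntl. Nr1d2 and Dbp could not be ordered, since Nr1d2 was the higher in 6 of 12 libraries, and Per3 exceeded Per2 in 8 of 12. Clock, the partner of ARNTL, was thus read at a higher level per length than Arntl in all libraries. Exon lengths joined all GENCODE transcripts of a gene, so the order rests on that choice of length. Exons of Nr1d1 (chr11:98767932-98775333, GRCm38) share 263 bases, 8.55% of their length, with Thra on the opposite strand, which read 362 CPM on average. Those of Dbp (chr7:45705088-45710203) share 539 bases, 18% of their length, with Sphk2 on the opposite strand (30.3 CPM), and those of Cry2 4.67% with a transcript at 0.128 CPM. Reads in these stretches cannot be assigned with certainty, since the use of strand is not given. The other 7 genes shared at most 0.439% of their exon length.

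**Figure D1:**
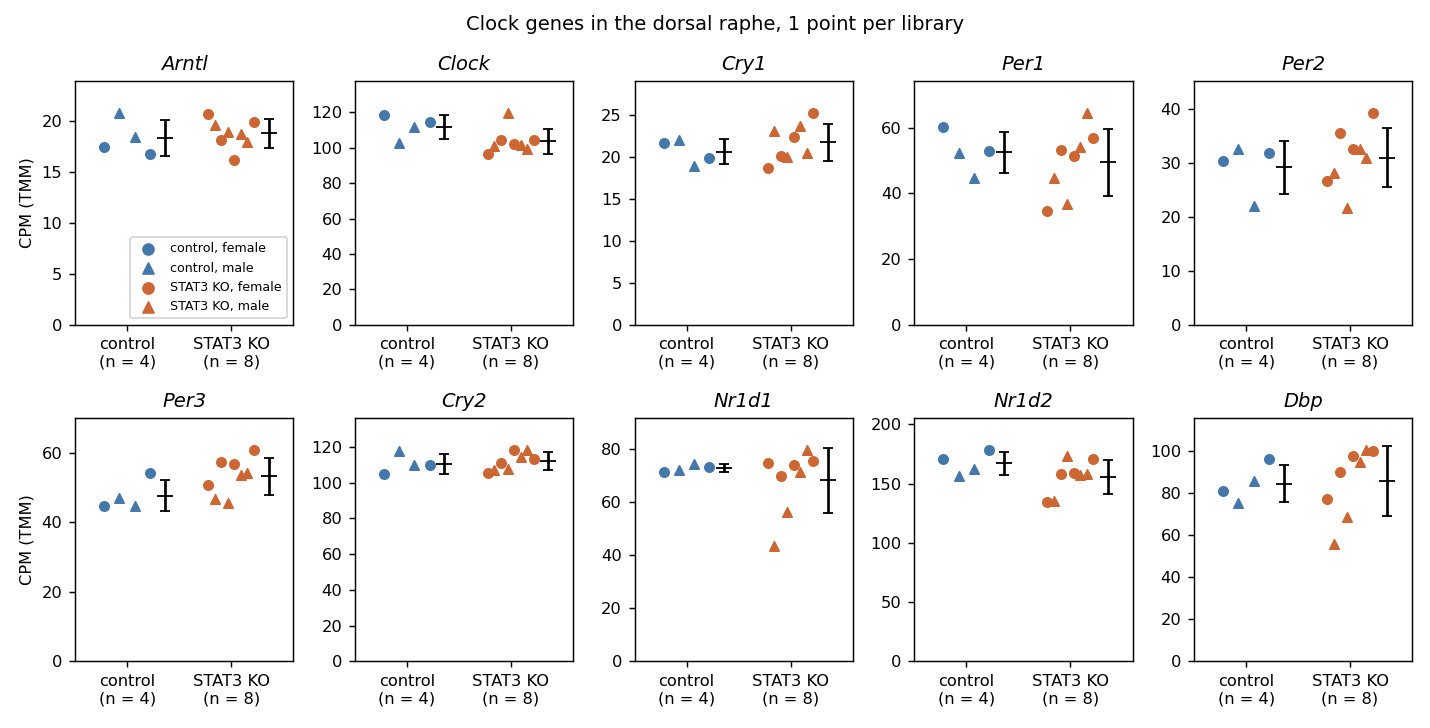
CPM (TMM, vertical axes from 0) of the 10 clock genes in each of the 4 control and 8 STAT3 KO libraries, with circles for females, triangles for males and black bars for the group mean ± SD. The groups overlapped for all 10 genes, and Nr1d1 and Dbp were lowest in the males STAT3 KO 6 and 8.

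The first comparison asked whether the loss of STAT3 in serotonergic cells went with a different level of the clock genes in the DR. No clock gene was called: 0 of 10 passed an adjusted p of 0.05 in edgeR's quasi-likelihood test (Benjamini-Hochberg over 15453 genes), where 0% of all genes passed, and DESeq2 also called 0 of 10 (6 over all genes). The study's own DESeq2 analysis reported more genes for genotype than the 6 found here, and the reason was not tested. Without the 4 libraries set apart for forebrain markers the count of clock genes in edgeR was again 0 of 10. At an unadjusted p below 0.05 the count was again 0 of 10, against 7.66% of all genes, and by the exact permutation test of single genes it was 0 of 10, against 7.1%. Values of the genotypes were separate for 0 of 10 genes, against 0.447% of all genes. The fold changes went both ways, with 6 genes higher in STAT3 KO mice, 4 lower, and a median log2 fold change of 0.019, beside a median of -0.0011 over all genes tested. These log2 fold changes ran from -0.11 for Clock to 0.16 for Per3, and all 95% confidence intervals lay within -0.38 and 0.37. Beside these values, several whole lists of cell type markers lay to 1 side, though 0 of their genes passed the adjusted p in edgeR. All 4 ependymal markers were higher with the KO (median log2 fold change 0.93, 2 at an unadjusted edgeR p below 0.05 and 3 by the exact permutation test), with a sum of 19.8 to 56.1 CPM in controls and 29.7 to 74.4 CPM in STAT3 KO libraries. All 4 cerebellar markers were higher (median 1.33, 2 at an unadjusted p and 0 by permutation), as were the 5 choroid plexus markers tested (median 0.32, 2 and 1) and all 5 astrocyte markers (median 0.044, 1 and 0). The cerebellar difference rested on STAT3 KO 10 and 16: controls averaged 40.1 CPM for the summed markers and the 8 STAT3 KO libraries 104 CPM, but the other 6 of these 37.5 CPM. For the choroid plexus the averages were 34.6 and 91.3 CPM, and 37.4 CPM in the STAT3 KO libraries other than 8 and 16. All 6 forebrain markers were lower (median -1.05, 2 and 0), a direction that control 4 carried. The sum averaged 87.4 CPM in controls but 30.1 CPM in the other 3. STAT3 KO libraries averaged 37.4 CPM, with a median of 28.8 CPM and with 88.6 CPM in STAT3 KO 16. All 5 oligodendrocyte markers were lower as well (median -0.10, 1 and 0). So were both genes tested of a list named for the suprachiasmatic nucleus (median -0.15, 0 and 0). That nucleus lies in the hypothalamus, while the piece was aimed at the midbrain, so these genes need not mark its cells here. The part of cell make-up in the genotype values of the clock genes was not tested.

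Of the activators, Clock was the nearest to the threshold. Clock read 118, 103, 112 and 114 CPM in controls 3, 4, 11 and 13, and 96.3 to 120 CPM (median 102) in STAT3 KO mice. Of the 8 STAT3 KO libraries, 7 lay below the mean of the controls, and STAT3 KO 8 lay above every control. The log2 fold change was -0.11 ± 0.053 (SE), with an unadjusted p of 0.055 and an adjusted p of 0.652 (edgeR), and an exact permutation p of 0.0869. This p went to 0.0242 without control 4 and 0.00909 without STAT3 KO 8 (exact permutation test, n = 11), and was up to 0.218 with other libraries left out. Arntl read 17.4, 20.8, 18.5 and 16.8 CPM in the same controls and 16.2 to 20.7 CPM (median 18.9) in STAT3 KO mice (log2 fold change 0.03 ± 0.071, edgeR adjusted p = 0.961). The groups overlapped throughout for both genes.

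Among the Per genes, which encode the repressors that set the pace of the loop, Per3 lay higher in 6 of 8 STAT3 KO libraries than the control mean. Per3 read 44.7, 47.1, 44.8 and 54.3 CPM in controls 3, 4, 11 and 13, and 45.5 to 61.0 CPM (median 54.0) in STAT3 KO mice. The log2 fold change was 0.16 ± 0.077, with an unadjusted p of 0.055 and an adjusted p of 0.652 (edgeR), and an exact permutation p of 0.0929. Leaving out control 13, the highest control, took this exact permutation p to 0.0485, and with other libraries left out it was up to 0.206. Per1 read 60.1, 52.3, 44.7 and 52.7 CPM in the controls. Its STAT3 KO values ran from 34.6 CPM in STAT3 KO 5 to 64.5 CPM in STAT3 KO 15 (median 52.2), so the controls lay inside their range. Per2 read 30.3, 32.6, 22.0 and 31.9 CPM in the controls, with 21.7 to 39.3 CPM (median 31.8) in STAT3 KO mice. The log2 fold changes were -0.09 ± 0.138 for Per1 and 0.08 ± 0.134 for Per2, both smaller than their errors. That of Per1 was -0.0097 without control 3, -0.02 without STAT3 KO 5, -0.03 without STAT3 KO 8 and -0.15 without control 11 or STAT3 KO 15.

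The cryptochromes, which hold the activators inactive, differed between the genotypes by less than their errors. Cry1 read 21.7, 22.0, 18.9 and 19.9 CPM in controls 3, 4, 11 and 13, and 18.6 to 25.2 CPM (median 21.4) in STAT3 KO mice (log2 fold change 0.07 ± 0.078). Cry2 read 105, 118, 109.8 and 110.1 CPM in the controls, with 105 to 119 CPM (median 112) in STAT3 KO mice (log2 fold change 0.02 ± 0.043). Of the 10 genes Cry2 was the steadiest, with its highest library 1.13 times its lowest.

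The receptor gene Nr1d1 had close control values and a wide STAT3 KO range. Nr1d1 read 71.2, 71.9, 74.5 and 73.3 CPM in controls 3, 4, 11 and 13, a SD of 1.48 CPM. The STAT3 KO libraries ran from 43.4 to 79.8 CPM (median 72.7), a SD of 12.1 CPM, with STAT3 KO 6 at 43.4 CPM, STAT3 KO 8 at 56.3 CPM and STAT3 KO 7 at 69.8 CPM below every control. Dbp, the output factor whose RNA swings widely over the day in most tissues, read 80.9, 75.1, 85.5 and 95.9 CPM in the controls, with 55.6 to 101 CPM (median 92.2) in STAT3 KO mice. STAT3 KO 6 and 8 were again the lowest, at 55.6 CPM in STAT3 KO 6 and 68.5 CPM in STAT3 KO 8. Nr1d2 read 171, 156, 162 and 179 CPM in the controls, with 134 to 173 CPM (median 158) in STAT3 KO mice, where STAT3 KO 5 and 6 were lowest at 134 and 135 CPM. The log2 fold changes were -0.09 ± 0.119 for Nr1d1, -0.10 ± 0.066 for Nr1d2 and 0.02 ± 0.133 for Dbp, with edgeR adjusted p of 0.913, 0.779 and 0.992. Without STAT3 KO 6, that of Nr1d1 was -0.02. A difference of spread between the genotypes was not tested.

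**Figure D2:**
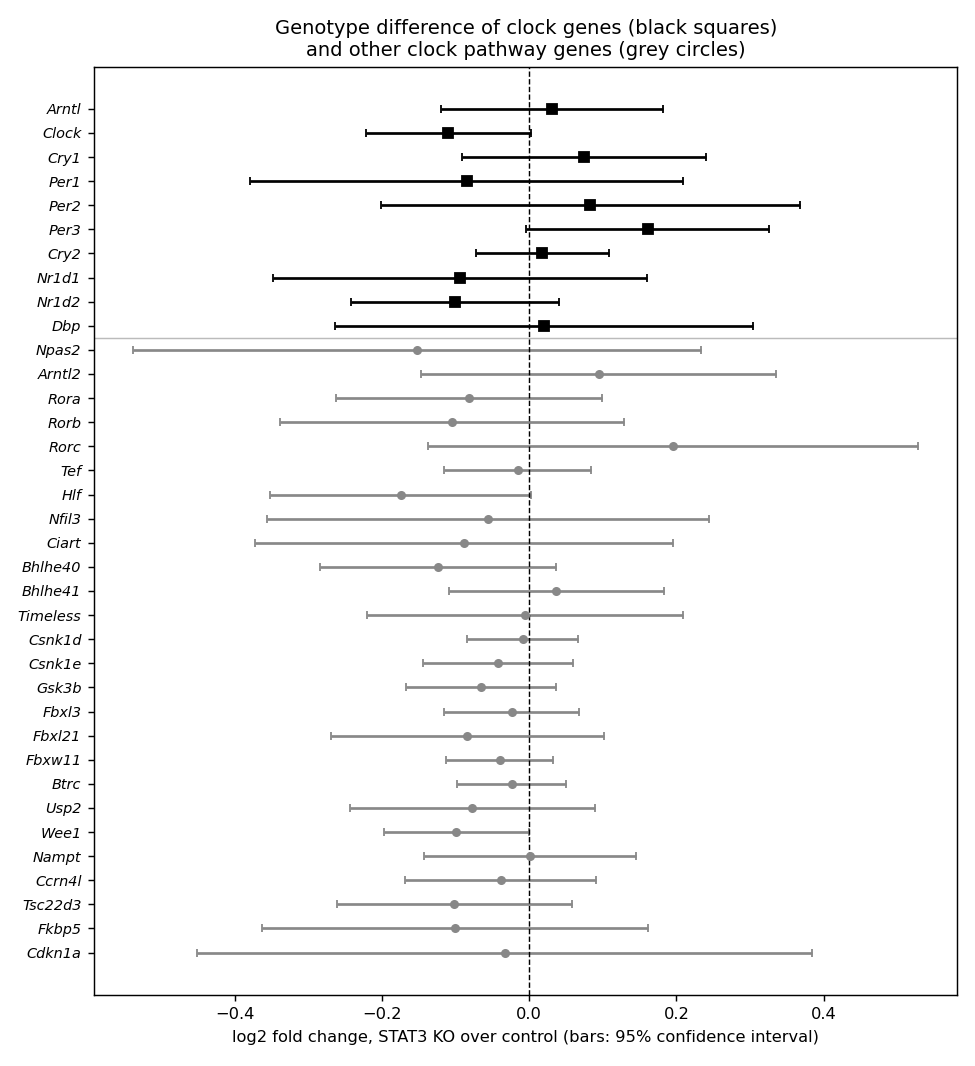
Log2 fold change of STAT3 KO over control (horizontal axis) with its 95% confidence interval from edgeR, for the 10 clock genes (black squares) and 26 other clock pathway genes (grey circles). The intervals of all 10 clock genes include 0, and that of Wee1 ends just below it.

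By sex, Per3 was lower in males at an unadjusted p only. Per3 read 54.2 ± 5.76 CPM (SD, n = 6) in females and 48.7 ± 4.18 CPM (n = 6) in males, a log2 difference of male minus female of -0.15 ± 0.063 in the edgeR fit with genotype (unadjusted p = 0.0308, adjusted p = 0.673). Per2 read 32.7 ± 4.38 CPM in females and 28.0 ± 5.05 CPM in males (log2 difference -0.22 ± 0.116, edgeR adjusted p = 0.726). At an adjusted p of 0.05, 0 of 10 clock genes were called for sex, against 0.0841% of all genes, and 1 of 10 (Per3) at an unadjusted p, against 7.2% of all genes. Of the 10, 7 were lower in males. The genotype difference was not called to depend on sex for any of them, with 0 of 10 at an adjusted p (0% of all genes) and 0 of 10 at an unadjusted p (5.49% of all genes). Within females, Clock read 116 CPM in the 2 controls and 102 CPM in the 4 STAT3 KO mice, with an exact permutation p of 0.0667, the smallest that 2 against 4 animals allow. In males it read 107 and 105 CPM (interaction log2 0.17 ± 0.104, edgeR adjusted p = 0.947).

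The second question was how the clock genes moved with each other from animal to animal, since genes of 1 phase rise and fall together when animals are sampled at different hours. Pearson r and Spearman rho of log2 CPM were computed over the 12 libraries for all 45 pairs, with p from 100000 permutations. Within the Dbp group all 21 pairs correlated positively, with a median r of 0.47 and a range of 0.12 to 0.86. Of all pairs of genes tested in these libraries, 49.7% had an r above 0. Between the Dbp group and the Arntl group, 14 of 21 pairs were negative (range -0.50 to 0.76). This count was 11 without STAT3 KO 8, 12 without STAT3 KO 15, 16 without STAT3 KO 16, and 13 or 14 without any other single library. Within the Arntl group 2 of 3 pairs were negative. Of the 45 pairs, 7 had an unadjusted p below 0.05 and 1 an adjusted p below 0.05 (permutation). The share of all pairs of genes at such a p was not computed, so these counts have no background beside them. The pairs share genes, libraries and the scaling of each library, so their signs are not independent of each other. The sampling hour was not tested, since the sources used here do not give it.

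Dbp and Nr1d1 formed the closest pair, with r = 0.86 (permutation p = 0.00076, adjusted over 45 pairs p = 0.0342) and rho = 0.69 (p = 0.0152, adjusted p = 0.171). This relation rested on STAT3 KO 6 and 8: without these 2, which are also the farthest from the median of Nr1d1, r was 0.41 (permutation p = 0.240, n = 10). Per2 and Per3 had r = 0.77 (permutation p = 0.00241, adjusted p = 0.0542) and rho = 0.77 (p = 0.0052, adjusted p = 0.117), and r stayed at 0.68 without the 2 libraries farthest from the median of Per2. Per3 and Dbp had r = 0.71 (permutation p = 0.00846, adjusted p = 0.0952) and rho = 0.71 (p = 0.0130, adjusted p = 0.171), and r was 0.85 without the 2 farthest libraries. Per1 and Per2 had r = 0.70 (permutation p = 0.0122, adjusted p = 0.109) and rho = 0.60 (p = 0.0428, adjusted p = 0.193), and 0.55 without the 2 farthest. Of the 45 pairs, 5 reached an r of 0.7 in size, against 2.67% of all pairs of genes.

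The fifth of these pairs crossed the groups. Clock and Nr1d2, which lie on opposite sides of the loop, varied in the same direction, with r = 0.76 (permutation p = 0.00441, adjusted p = 0.0661) and rho = 0.83 (p = 0.00124, adjusted p = 0.0558), and r was 0.74 without the 2 farthest libraries. Cry1, of the Arntl group, had r = 0.63 to Per2 (permutation p = 0.0297, adjusted p = 0.223, rho = 0.62, p = 0.0340, adjusted p = 0.193), which was 0.52 without the 2 farthest libraries. Cry1 also had r = 0.47 to Per1, 0.36 to Per3 and 0.34 to Cry2 (each permutation p above 0.05). Its r was -0.18 to Nr1d1, 0.07 to Nr1d2 and 0.08 to Dbp. These last values moved with single libraries: they were 0.13, 0.28 and 0.42 without STAT3 KO 6, and -0.31, -0.56 and -0.22 without the 2 farthest libraries. Over the 12 libraries the r of Cry1 was thus positive to every gene of the Dbp group but Nr1d1. Arntl was the gene of its group with a negative r to every member of the Dbp group over the 12 libraries, though some of these signs turned in other settings: r was 0.05 to Per3 without the 2 farthest libraries, 0.09 to Cry2 without STAT3 KO 10, 0.03 to Nr1d1 without STAT3 KO 6 and 8, and 0.03 to Per2 for deviations from the means of genotype and sex. Without the 4 libraries set apart for forebrain markers all 7 were negative, from -0.46 to -0.72. The largest were to Nr1d2, with r = -0.50 (permutation p = 0.0936, adjusted p = 0.331, rho = -0.50, p = 0.103, adjusted p = 0.357) and -0.66 without the 2 farthest, and to Dbp, with r = -0.48 (permutation p = 0.110, adjusted p = 0.351, rho = -0.52, p = 0.0874, adjusted p = 0.328) and -0.39 without the 2 farthest. Neither passed the threshold.

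**Figure D3:**
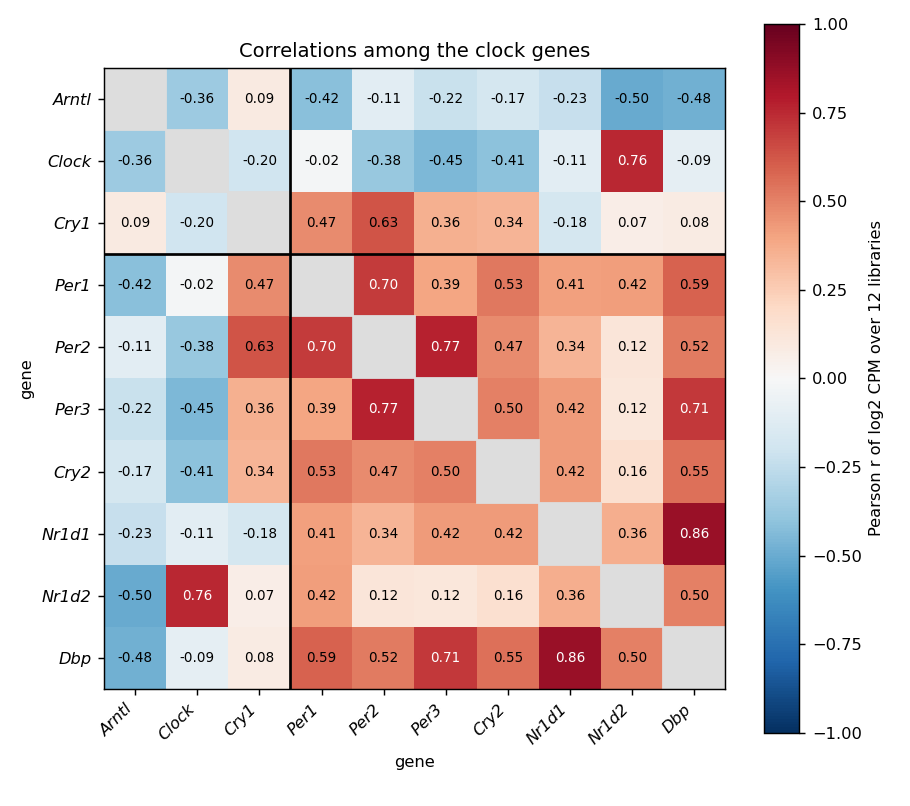
Pearson r of log2 CPM over 12 libraries for each pair of clock genes (colour scale from -1 in blue to 1 in red, values printed), with black lines between the Arntl group (first 3 genes) and the Dbp group (the other 7). All pairs within the Dbp group are red, Arntl is blue against each of that group, and Clock against Nr1d2 stands out at 0.76.

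The count of positive pairs within the Dbp group was 21 of 21 also for deviations from the genotype means, and 21 in the STAT3 KO libraries alone. It was 18 without STAT3 KO 6, 19 without STAT3 KO 16, 19 without STAT3 KO 5, 18 without the 4 libraries set apart for forebrain markers, and 19 by Spearman rho. By deviations from the genotype means 3 pairs passed the adjusted p, and by deviations from the means of genotype and sex 7 did, tests whose p are somewhat too small because centring uses up degrees of freedom. No pair did by Spearman rho, without those 4 libraries, or without STAT3 KO 6 and 8, a choice made after seeing the data. Single libraries that took the count from 1 to 0 when left out were STAT3 KO 6, 8, 10, 15 and 16. It was 2 without control 4, 3 without control 3 and 2 without STAT3 KO 5.

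**Figure D4:**
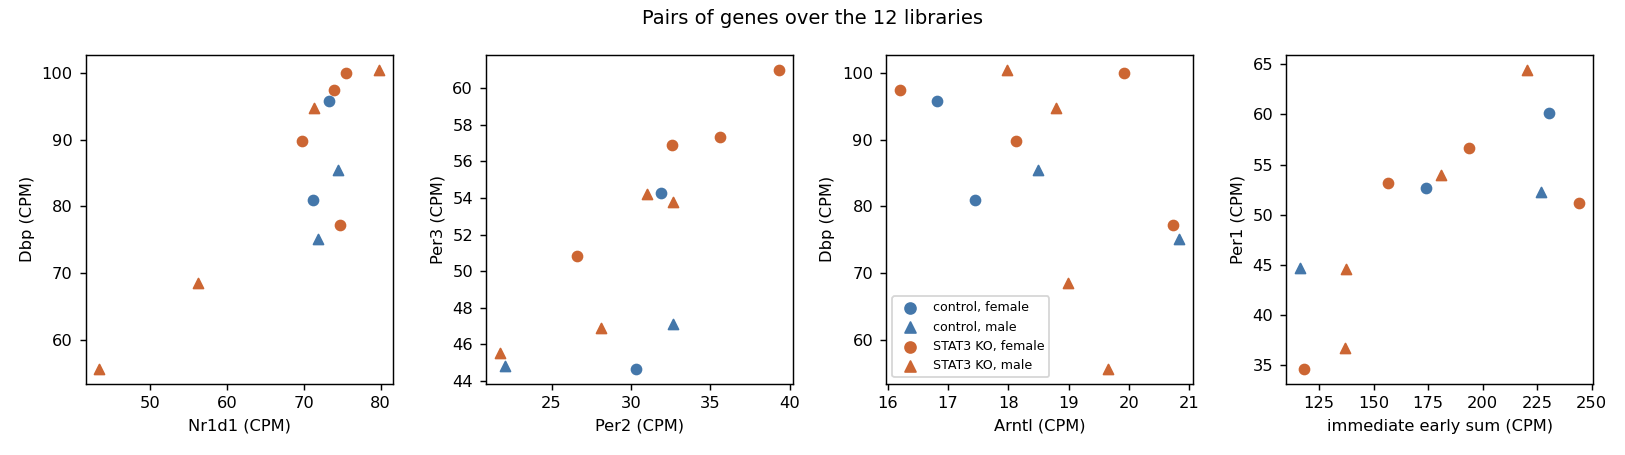
CPM of Dbp against Nr1d1, Per3 against Per2, Dbp against Arntl, and Per1 against the summed CPM of 12 immediate early genes, 1 point per library (axes do not start at 0). Dbp and Nr1d1 are both lowest in STAT3 KO 6 and 8, and the other libraries lie between 69.8 and 79.8 CPM of Nr1d1, whereas the points of Per2 and Per3 are spread along the whole range.

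Seen by library, the Dbp group was lowest in 3 STAT3 KO animals and highest in 3. Its mean deviation from the average of the 12 libraries was -0.27 on the log2 scale in STAT3 KO 6, with 7 of 7 genes below their own average, -0.22 in STAT3 KO 8 (6 of 7 below) and -0.15 in STAT3 KO 5 (6 of 7 below). It was 0.19 in STAT3 KO 16 and 0.10 in STAT3 KO 10, each with 7 of 7 genes above average, and 0.15 in STAT3 KO 15 (6 of 7 above). The low libraries differed in which genes were low. STAT3 KO 6 was low in Nr1d1 (-0.66) and Dbp (-0.59) with Per1 at -0.15 and Per2 at -0.09. STAT3 KO 8 was low in Per1 (-0.44) and Per2 (-0.46) as well as in Nr1d1 and Dbp (both -0.29), whereas STAT3 KO 5 was low in Per1 (-0.52) with Nr1d1 at 0.12. Controls lay between -0.09 and 0.10 in this mean, and Per2 of control 11 stood out among them at -0.44. The mean of the Arntl group moved less, from -0.07 in STAT3 KO 15 to 0.11 in STAT3 KO 16.

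**Figure D5:**
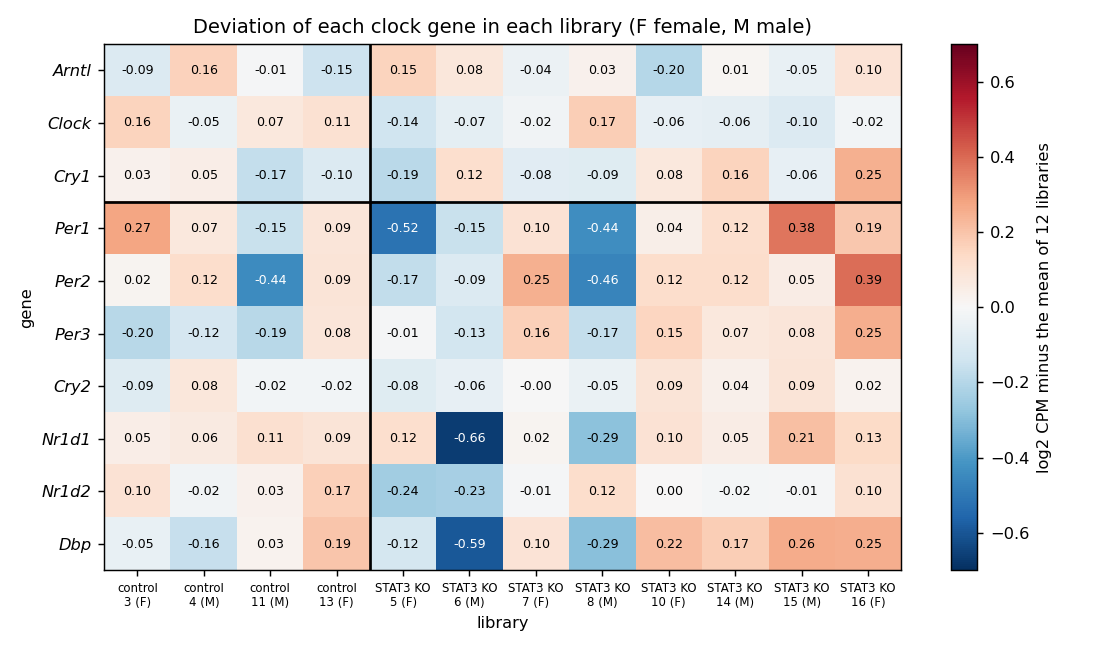
Log2 CPM of each clock gene (rows, Arntl group above the line) in each library (columns, controls left of the line) minus the mean of that gene over 12 libraries. The darkest cells are the low Nr1d1 and Dbp of STAT3 KO 6 and the low Per1 of STAT3 KO 5.

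The spread between animals was moderate beside that of other genes. The SD of log2 CPM within genotype was 0.28 for Per1, 0.27 for Dbp, 0.27 for Per2 and 0.25 for Nr1d1, and 15.9% to 19.3% of the genes tested had a higher one. It was 0.14 for Per3, 0.14 for Cry1, 0.12 for Nr1d2, 0.12 for Arntl, 0.09 for Clock and 0.07 for Cry2. The median over the 10 was 0.14, beside 0.12 over all 15453 genes. From the lowest to the highest library, CPM differed 1.86-fold for Per1, 1.84-fold for Nr1d1, 1.81-fold for Per2 and 1.81-fold for Dbp, and between 1.13-fold (Cry2) and 1.37-fold (Per3) for the other 6.

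Of 26 further genes of the clock pathway, 22 lay lower with the KO and 4 higher, beside 7826 lower and 7627 higher of all genes tested. Their median log2 fold change was -0.05 beside -0.0011 over all genes tested, and 0 passed the adjusted p. The 26 genes share libraries and scaling, so their directions are not independent of each other. The list shares 3 genes (Cdkn1a, Fkbp5 and Tsc22d3) with the glucocorticoid list. Wee1, a cell cycle kinase with a clock-driven promoter, was the 1 of 26 with an unadjusted p below 0.05, and the 1 with a permutation p below 0.05, against 7.66% and 7.1% of all genes. Its level was 36.7 ± 2.53 CPM (SD, n = 4) in controls and 34.2 ± 1.09 CPM (n = 8) in STAT3 KO mice (log2 fold change -0.10 ± 0.046, edgeR unadjusted p = 0.0485, adjusted p = 0.647, exact permutation p = 0.0202). Hlf, a PAR bZIP factor of the same family as Dbp, read 71.9 ± 7.11 and 63.7 ± 7.41 CPM (log2 fold change -0.17 ± 0.083, edgeR adjusted p = 0.652). Tef, the third of that family, read 266 ± 15.1 and 263 ± 13.2 CPM, and Nfil3, which competes with them for D-boxes, read 9.72 ± 2.20 and 9.35 ± 1.43 CPM. Npas2, which can stand in for CLOCK, read 5.96 ± 2.18 CPM in controls, against 5.38 ± 0.984 CPM in STAT3 KO mice. The repressors Ciart (12.3 ± 1.39 and 11.6 ± 2.11 CPM), Bhlhe40 (73.9 ± 6.39 and 67.8 ± 7.17 CPM) and Bhlhe41 (87.2 ± 4.29 and 89.5 ± 8.84 CPM) did not pass the adjusted test either.

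Over the 12 libraries, several of these genes had a high r to Dbp. Bhlhe41 (r = 0.86, place 5 of 15452 genes ordered by their r to Dbp) and Ciart (r = 0.80, place 10), which both repress the ARNTL and CLOCK pair, were with Nr1d1 (place 4) among the 10 genes closest to Dbp. Tef had r = 0.64 to Dbp and -0.51 to Arntl, Hlf 0.53 and -0.27, and Rora, whose receptor activates Arntl, 0.59 and -0.61. Npas2, of the same arm as Arntl, had r = -0.47 to Dbp and 0.47 to Arntl. These values are descriptions over 12 libraries that share their depth and tissue, with no test. The r of Nr1d1 to Dbp went to 0.41 without STAT3 KO 6 and 8, the lowest libraries in Dbp. For the pathway genes named here r was not computed without those libraries, so their places may rest on them. Of the 35 listed clock genes tested, 3 were among the 50 genes closest to Dbp, and 0 among the 50 closest to Arntl.

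Outside the clock lists, the genes closest to Dbp were Slain2 (r = 0.92), Angptl2 (0.88), Trim67 (0.88), Cep72 (0.84) and Lrch1 (0.84), and the farthest on the negative side were Mrps25 (-0.93) and Rps6kc1 (-0.88). Without the 2 libraries farthest from the median of Dbp, r was 0.79 for Slain2, 0.58 for Cep72 and -0.83 for Mrps25. Closest to Arntl were Supt4a (0.88), Mrpl53 (0.86), Cct6b (0.86), Rsph3b (0.83) and Pml (0.83), and on the negative side Cr2 (-0.88), Pbrm1 (-0.88) and Clec2l (-0.86). Of the 15452 genes set against each, 13 had an r of at least 0.8 to Dbp and 11 to Arntl, and 35 had an r of -0.8 or below to Dbp and 9 to Arntl.

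Per1 and Per2 can also be induced outside the loop, by neuronal activity and by glucocorticoids, and genes of both inputs were read beside them. Of 12 immediate early genes, which neurons switch on within minutes of activity, 11 were tested (4 higher and 7 lower, median log2 fold change -0.02). In edgeR's test for genotype 0 of 11 passed an adjusted p of 0.05, against 0% of all genes. At an unadjusted p it was also 0 of 11, against 7.66% of all genes. The summed level of the 12 ran from 116 to 230 CPM in controls and from 118 to 244 CPM in STAT3 KO mice. Fos read 23.0 ± 11.4 CPM in controls, against 22.3 ± 10.2 CPM in STAT3 KO mice. Over the 12 libraries, the sum had r = 0.79 to Per1 (permutation p = 0.00168, rho = 0.64, p = 0.0289) and 0.71 without the 2 farthest libraries. Adjusted over the 120 relations of 12 lists and 10 clock genes, p was 0.202 for r and 0.584 for rho. The sum had r = 0.66 to Per2 (permutation p = 0.0196) and 0.62 to Cry2 (p = 0.0334), with a rho of 0.55 for both (p = 0.0714 and 0.0701) and adjusted p of 0.365 for r and 0.584 for rho. These r went to 0.46 and 0.56 without the 2 farthest.

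Of 10 genes that respond to glucocorticoids, 0 passed the adjusted p for genotype (4 higher and 6 lower), and Klf9, named after its values were seen, was the 1 of 10 with an unadjusted p below 0.05, against 7.66% of all genes (98.4 ± 8.15 CPM in controls against 85.0 ± 10.8 CPM, edgeR unadjusted p = 0.0279, adjusted p = 0.615, exact permutation p = 0.0687). Sgk1 read 103 ± 39.8 and 86.9 ± 36.2 CPM, and Tsc22d3 147 ± 18.3 and 137 ± 11.6 CPM. The sum of the 10 was highest in STAT3 KO 6, where it reached 956 CPM while all others held 580 to 845 CPM, the animal with the lowest Dbp and Nr1d1. Over the 12 libraries this sum had r = -0.57 to Nr1d1 (permutation p = 0.0703, adjusted p = 0.491, rho = 0.02, p = 0.957, adjusted p = 0.982) and 0.31 without the 2 farthest libraries, so its sign rested on those. Its part in the low values of STAT3 KO 6 was not tested.

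The summed markers of 10 cell types were set beside the clock genes in the same way. Of these 100 relations, 0 passed the adjusted p, 8 had an unadjusted p below 0.05 by Pearson r and 7 by Spearman rho. The sum of 5 oligodendrocyte markers, 11189 to 15185 CPM, had r = 0.68 to Clock (permutation p = 0.0153, rho = 0.62, p = 0.0358) and 0.64 to Nr1d2 (p = 0.0236, rho = 0.63, p = 0.0330), which went to 0.52 and 0.41 without the 2 farthest libraries. It was highest in STAT3 KO 8, which also held the highest Clock. The sum of 7 serotonergic markers, 1438 to 2140 CPM, had r = -0.63 to Dbp (permutation p = 0.0250, rho = -0.69, p = 0.0162, r = -0.83 without the 2 farthest), and the sum of 4 endothelial markers r = -0.67 to Dbp (p = 0.0163, rho = -0.55, p = 0.0714, r = -0.38 without the 2 farthest). Both sums were highest in STAT3 KO 6, at 2140 and 209 CPM. Endothelial markers also had r = -0.63 to Nr1d1 (permutation p = 0.0303, rho = -0.45, p = 0.141, r = -0.32 without the 2 farthest). The cerebellar markers, highest in STAT3 KO 16, had r = 0.63 to Per2 (permutation p = 0.0289, rho = 0.52, p = 0.0880), 0.62 to Per3 (p = 0.0326, rho = 0.42, p = 0.175) and 0.62 to Cry1 (p = 0.0297, rho = 0.38, p = 0.216). These r went to 0.45, 0.22 and 0.28 without the 2 farthest. The relations above had an adjusted permutation p of 0.365 for r and of 0.584 or more for rho. By rank, forebrain markers to Nr1d1 had the smallest p, with rho = 0.78 (permutation p = 0.00452, adjusted p = 0.542), r = 0.44 (p = 0.112, adjusted p = 0.589) and r = 0.71 without the 2 farthest libraries. Serotonergic markers had rho = -0.71 to Per1 (permutation p = 0.0116, adjusted p = 0.584) and r = -0.57 (p = 0.0512, adjusted p = 0.491, r = -0.56 without the 2 farthest). They had rho = 0.62 to Arntl (permutation p = 0.0372, adjusted p = 0.584) and r = 0.56 (p = 0.0603, adjusted p = 0.491, r = 0.76 without the 2 farthest). Microglial markers had rho = -0.61 to Dbp (permutation p = 0.0391, adjusted p = 0.584) and r = -0.53 (p = 0.0737, adjusted p = 0.491, r = -0.39 without the 2 farthest). The part of cell make-up in the clock genes' differences between animals was not tested. Of 4 genes that mark the suprachiasmatic nucleus, the central clock of the hypothalamus, the sum was 13.97 to 57.7 CPM, and 1 of the 4 was at 0 in some library. The piece was aimed at the midbrain, so these genes need not mark that nucleus here.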

How the data were processed

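RNA from the DR of 12 animals was sequenced as 75 bp single reads, with 1 library per animal. The authors mapped reads to mm10 with STAR 2.5.0b (submitters' processing notes, which also name bcl2fastq and DESeq2 1.6.3), and deposited raw counts per gene symbol, without normalisation. The read counter, annotation and use of strand are not given in the sources used here, so reads of overlapping genes cannot be told apart. Reads on no single gene, 13.9% to 15.8% per library, were left out. No library was a copy of another: differences over the 66 pairs were 5.24 to 29.1 times counting noise, a ratio of variances over 13400 genes. Nothing in the labels ties animals of the 2 genotypes together.

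The clock genes and the other lists were chosen with earlier results of these data known. Genotype was tested with edgeR 4.0.16 (quasi-likelihood, TMM, filterByExpr by genotype with a minimum count of 10, R 4.3.3) on all 15453 genes that passed, with Benjamini-Hochberg adjustment, all tests two-sided, and the threshold at 0.05. Sex and the interaction of genotype and sex were fitted in the same way. A prior count of 2 was added for log2 CPM. The exact permutation test of each gene ran over 495 splits of the animals, and its smallest p is 0.00202. Correlations used numpy 2.4.6 with 100000 permutations (smallest p 1e-05), exact where under 10 libraries entered. Alternatives were DESeq2 1.42.0, limma 3.58.1 voom with quality weights, RLE scaling, no TMM, other filters, sex as a covariate, a prior count of 0.5, and libraries left out. The fits and permutation tests were first tested on simulated data. Gene lengths came from GENCODE vM21 and promoters from RefSeq (GRCm38.p6).

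The text names all 10 clock genes, genes of the clock pathway and input lists with a permutation p below 0.05, a preset choice of pathway genes, and the 5 highest and 3 lowest genes by their r to Dbp and to Arntl, of which 1 is not reported here. Klf9 was named after its values were seen.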

Additional observations from a re-analysis of the deposited data

Results flagged for a closer look

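Clock in STAT3 KO 8, at 120 CPM, lay apart from the other 7 STAT3 KO libraries, with a gap to the next library of 0.619 of the range of the group on the log2 scale. Of 20 groups examined, 1 was picked out in this way, and chance picks out about 1 in 20.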

How the results depend on the processing

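No clock gene passed the adjusted p for genotype, for sex or for their interaction under any alternative run. Over all genes, DESeq2 called 6 for genotype, 2 for the interaction and 24 for sex, where edgeR called 0, 0 and 13. With each animal left out in turn, edgeR called 0 to 1 genes for genotype, 0 to 37 for the interaction (37 without control 11) and 10 to 13 for sex. The exact permutation test called 0 to 1 clock genes (Clock without control 4 or STAT3 KO 8, Per3 without control 13). Log2 fold changes near 0 changed sign when animals were left out: Arntl ran from -0.0063 to 0.098, Cry2 from -0.0053 to 0.052, Per2 from -0.026 to 0.14 and Dbp from -0.030 to 0.091, and Dbp was at -0.10 without the 4 libraries set apart for forebrain markers. The cause was not tested. The other 6 genes kept their sign under every alternative run, but sizes moved: Per1 ran from -0.15 to -0.0097 and Nr1d1 from -0.13 to -0.02 with animals left out, and Nr1d1 was at -0.21 without those 4 libraries. Cry1 went from 0.074 to 0.040 without control 11, to 0.041 without STAT3 KO 16 and to 0.12 without those 4 libraries, and Nr1d2 from -0.10 to -0.063 without control 13. Pairs with an adjusted p below 0.05 numbered 1, but 3 for deviations from the genotype means, 7 for those from the means of genotype and sex, and 0 by Spearman rho, without those 4 libraries, and without STAT3 KO 6 and 8 together. They numbered 0 to 3 with single animals left out. Within 1 sex the permutation test cannot go below 0.0667, so it made no calls there. No analysis by litter was possible because the litter of each animal is not given in the sources used here. With 4 against 8 animals, the 95% intervals of the 10 genotype differences spanned 0.18 to 0.59 on the log2 scale.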

Other observations

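Egr2, an immediate early gene, did not pass the filter on low counts, with 0 to 40 counts per library, and was left out of the test while it stayed in the summed level of its list.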
